A study of Mus musculus with 28 samples.

Results

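The genes described here are 10 members of the inflammasome and NOD-like receptor machinery of the mouse: Nlrp3, Nlrp1b, Mefv, Naip2, Naip5, Nlrc4, Pycard, Gsdmd, Nod1 and Nod2. They were taken by gene symbol from the 24421 genes counted in each library, and all 10 were found. Each was counted in splenic dendritic cells (DCs) of 3 kinds, and in 1 kind also after deletion of Irf8.

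Inflammasomes are protein platforms that form in the cytosol when a sensor meets a microbial product or a sign of cell damage. The sensor recruits the adaptor ASC and caspase-1, which matures interleukin-1 beta and interleukin-18 and cuts gasdermin D into a pore-forming fragment. NOD1 and NOD2 belong to the same receptor family but signal through the kinase RIPK2 to NF-kappaB, and IRF8 is known in mouse macrophages to drive the Naip genes that arm the NLRC4 inflammasome.

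Plasmacytoid DCs (pDC), the main type I interferon makers, came from Irf8fl/fl Itgax-cre mice (pDC_TG, 4 libraries) and from Irf8fl/fl mice (pDC_WT, 8 libraries). CD24+ conventional DCs (cDC1_WT, 8 libraries), which specialise in presenting antigen to CD8 T cells, and CD172a+ conventional DCs (cDC2_WT, 8 libraries), which mainly prime CD4 T cells, came from Irf8fl/fl mice. All mice were C57Bl/6, aged 6 to 12 weeks and untreated. Every group carries the loxP-flanked Irf8 alleles, WT means that no Cre is present, and pDC_TG cells recombined where an Itgax promoter had expressed Cre (Itgax encodes CD11c), so that the effects of Irf8 loss and of Cre itself cannot be told apart. The labels number the mice, so the libraries of a group are taken as separate animals. Expression was measured by bulk RNA-seq as read counts per gene, given below as CPM (counts scaled to a library size that TMM corrects), with mean ± SD over the 4 pDC_TG or 8 WT libraries. A gene was called higher or lower when its adjusted p from edgeR's quasi-likelihood test (Benjamini-Hochberg over 13159 genes) was below 0.05, and "adjusted p" means this value throughout. In bulk samples, fewer cells of a type and less RNA per cell cannot be told apart.

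Each library held reads of genes in numbers from 22805201 to 28725550 in pDC_TG, from 23592099 to 30152305 in cDC1_WT, from 20696141 to 29351715 in cDC2_WT and from 17299285 to 30787679 in pDC_WT. Irf8 itself ran from 1166 to 1787 CPM in pDC_TG, against 5379 to 6537 CPM in pDC_WT, a log2 fold change of -2.07 (SE 0.13, adjusted p = 4.43e-13). It ran from 3702 to 4250 CPM in cDC1_WT and from 49.2 to 87.1 CPM in cDC2_WT. Summed pDC markers (10 genes) stood at 9921 to 13100 CPM in pDC_TG, 198 to 233 CPM in cDC1_WT, 400 to 545 CPM in cDC2_WT and 10010 to 13290 CPM in pDC_WT. Summed cDC1 markers (8 genes) reached 3767 to 5333 CPM in cDC1_WT and at most 953 CPM in any other library. Summed cDC2 markers (8 genes) reached 2801 to 3301 CPM in cDC2_WT, 1804 to 2567 CPM in pDC_WT, 1437 to 1698 CPM in pDC_TG and 29.4 to 53.5 CPM in cDC1_WT. The labelled cell types thus had their markers, but the cDC2 sum was also high in pDC and set cDC2_WT apart from them only narrowly. Summed neutrophil markers (10 genes) were 199 CPM in pDC_TG replicate 4 and 22.6 CPM in cDC1_WT replicate 4, and 0.195 to 4.59 CPM in the other 26 libraries. Between pDC_TG and pDC_WT 1 of 10 pDC markers was higher and 2 lower, 2 of 8 cDC1 markers were higher and 3 lower, 2 of 8 cDC2 markers were higher and 3 lower, and 5 of 6 tested neutrophil markers were higher. The higher pDC marker, Cox6a2, and 1 of the higher cDC2 markers, Itgam, are neighbours of Itgax and are described at the end. The share called over all genes was 14.8%. B cell markers (5 genes) summed to 55.8 to 114 CPM and T and NK cell markers (6 genes) to at most 4.68 CPM in any library.

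Most of these genes were most abundant in cDC2 and scarce in pDC, while the pathway's adaptor and its pore former were abundant in all 4 groups. By group mean, cDC2_WT had the highest level of 8 members, and pDC_WT had the highest level of the other 2, Naip5 and Pycard. Mefv stood furthest apart: it averaged 27.2 CPM in cDC1_WT and 67.9 CPM in cDC2_WT and had no read in the 8 pDC_WT libraries. In pDC_TG Gsdmd was higher and Naip2 lower than in pDC_WT, and the other 8 members did not pass the threshold.

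**Figure D1:**
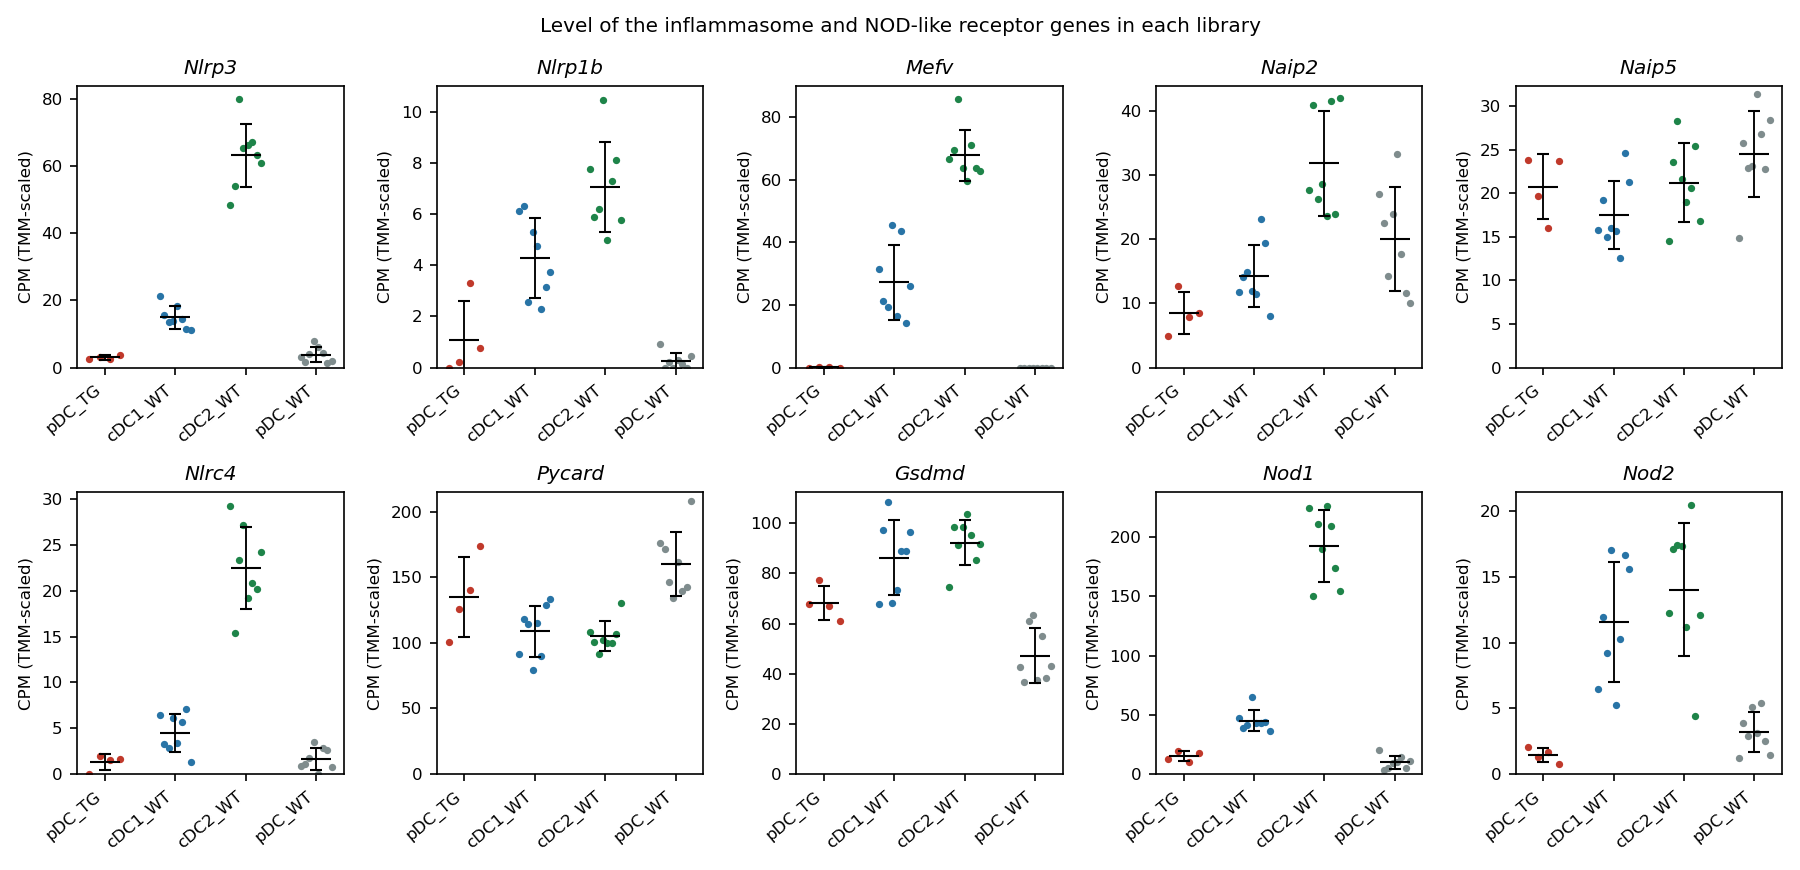
Level of each of the 10 genes in every library, in TMM-scaled CPM on linear axes that start at 0, for pDC_TG, cDC1_WT, cDC2_WT and pDC_WT; points are libraries, the bar is the mean and the whiskers 1 SD. The cDC2_WT points sit above all others for Nlrp3, Mefv, Nlrc4 and Nod1, whereas the 4 groups overlap for Naip5.

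In pDC_TG against pDC_WT, 2 of the 10 members changed, 1 upwards and 1 downwards. Of all genes tested in this comparison 14.8% were called, 7.72% higher and 7.04% lower, so the members' count of 2 is near the background. Gsdmd, which encodes the pore-forming gasdermin D, was the 1 called higher (log2 fold change 0.53, SE 0.14, adjusted p = 0.00949), and Naip2, a sensor of bacterial secretion systems, the 1 called lower (-1.23, SE 0.31, adjusted p = 0.00522). The median log2 fold change of the members was -0.24, and that of all genes was 0. The Gsdmd call was lost without pDC_TG replicate 2 (adjusted p = 0.0521) and against pDC_WT replicates 1 to 4 alone (0.178), and the Naip2 call against pDC_WT replicates 5 to 8 alone (0.103). Both calls held without pDC_TG replicate 4, the library with the neutrophil markers.

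**Figure D2:**
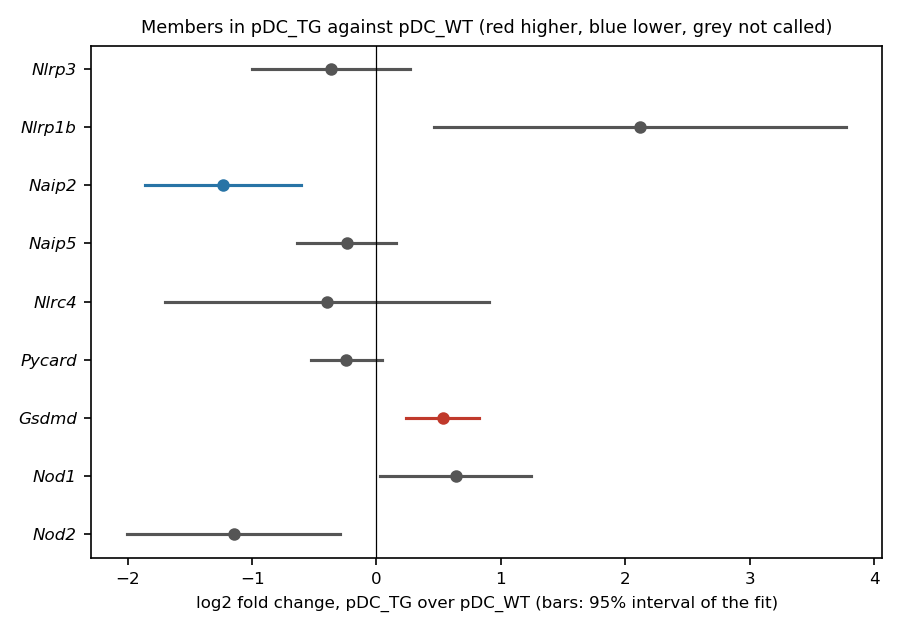
Log2 fold change of pDC_TG over pDC_WT for 9 genes, with the 95% interval of the fit as bars; Mefv is left out because it had no read in pDC_WT. Gsdmd at 0.53 and Naip2 at -1.23 were called, while the wide intervals of Nlrp1b and Nlrc4 belong to genes of about 1 CPM.

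Against pDC_WT, conventional DCs had more transcript of most sensors and of Gsdmd. In cDC1_WT 7 members were higher and 2 lower than in pDC_WT, a comparison where 60.9% of all genes tested were called, 30.6% higher and 30.3% lower. In cDC2_WT 8 members were higher and 1 lower than in pDC_WT, where 57.1% of all genes were called, 28.8% higher and 28.3% lower. The median log2 fold change of the members was 1.64 in cDC1_WT and 2.93 in cDC2_WT, against -0.03 and -0.01 for all genes. Both comparisons use the same pDC_WT libraries. Pycard was the member called lower in both, and Naip5 the other called lower in cDC1_WT.

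**Figure D3:**
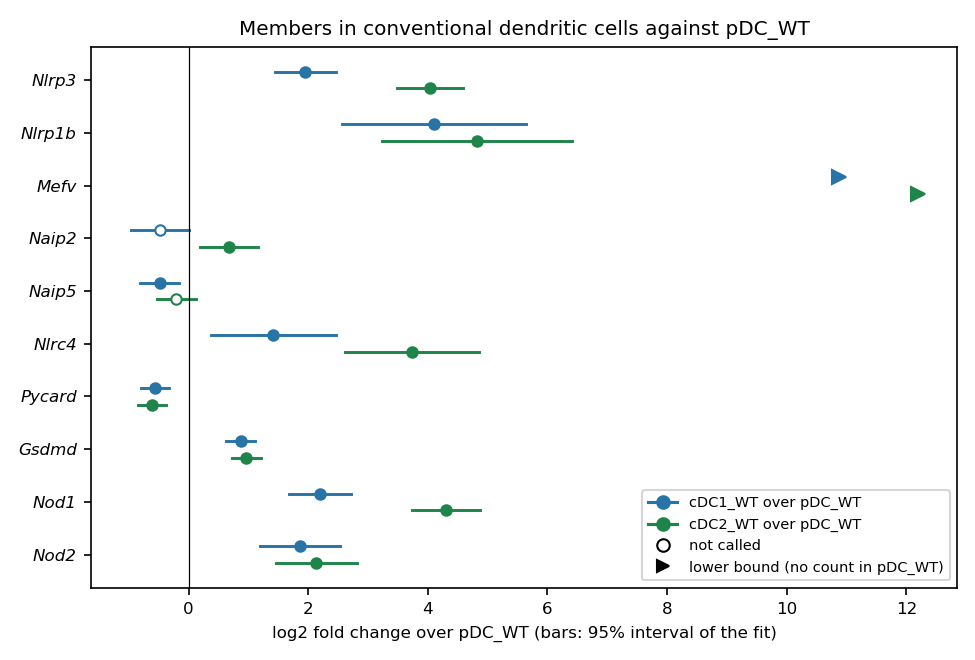
Log2 fold change over pDC_WT in cDC1_WT (blue) and cDC2_WT (green), with the 95% interval of the fit as bars; open circles were not called and triangles are lower bounds for Mefv, which had no read in pDC_WT. The green point lies to the right of the blue one by about 2 log2 units for Nlrp3, Nlrc4 and Nod1, and the 2 lie close together for Pycard and Gsdmd.

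Between the conventional subsets, cDC1_WT had less of 5 members (Nlrp3, Mefv, Naip2, Nlrc4 and Nod1) than cDC2_WT. Of all genes tested 46.2% were called in this comparison, 22.8% higher and 23.4% lower in cDC1_WT, and the median log2 fold change was -0.94 over the members and -0.01 over all genes. The other 5 members, Nlrp1b, Naip5, Pycard, Gsdmd and Nod2, did not pass the threshold. Against cDC1_WT, pDC_TG had 6 members lower and 4 that did not pass, where 53.6% of all genes were called (27.1% higher, 26.6% lower). Against cDC2_WT it had 8 lower and 1 higher, Pycard, where 48.2% were called (24.3% higher, 23.9% lower).

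Markers of other myeloid cells also differed between these groups. Of 12 monocyte and macrophage markers 11 were tested, 2 of which were lower in pDC_TG than in pDC_WT, where 14.8% of all genes were called. In cDC2_WT against pDC_WT 9 were higher and 1 lower, where 57.1% of all genes were called. Csf1r averaged 486 ± 79.4 CPM in cDC2_WT and 3.77 ± 4.24 CPM in pDC_WT. Adgre1, which encodes F4/80, averaged 370 ± 30.9 CPM in cDC2_WT and 0.559 ± 0.509 CPM in pDC_WT, and the complement gene C1qa 25.4 ± 7.47 CPM in cDC2_WT and 0.382 ± 0.32 CPM in pDC_WT. In cDC1_WT the same 3 genes averaged 10.8, 3.27 and 1.15 CPM. Lyz2, the most abundant of the list in cDC2_WT, averaged 1753 ± 498 CPM there, 347 CPM in cDC1_WT and 2.81 CPM in pDC_WT. Cd14, C1qb and C1qc averaged 29.2, 34.1 and 21.2 CPM in cDC2_WT, against 8.29, 0.775 and 0.509 CPM in pDC_WT. The marker sums ran from 2274 to 3045 CPM in pDC_TG, 353 to 592 CPM in cDC1_WT, 2074 to 3591 CPM in cDC2_WT and 1957 to 2621 CPM in pDC_WT, where 1 gene that pDC also express, Ly6c2, made up 2373 CPM on average. Other genes of the list were low in cDC2_WT: Vcan had no read in its 8 libraries, Cd5l averaged 0.855 CPM and Fcgr1 4.0 CPM. Vcam1 averaged 87.7 CPM in cDC1_WT and 32.5 CPM in cDC2_WT. Whether monocytes or macrophages had a part in the high cDC2_WT levels of Nlrp3, Nlrc4 and Nod1 was not tested.

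NAIP proteins bind bacterial ligands directly and then trigger assembly of NLRC4: in the mouse NAIP5 recognises flagellin, and NAIP2 the rod protein of type III secretion systems. Naip2 and Naip5 lie next to each other on the minus strand of chromosome 13 (GRCm38 positions 100144063 to 100202092 and 100211739 to 100246323, GENCODE annotation), both protein-coding. Their RefSeq promoter windows (GRCm38.p6, minus strand, from 250 bases before to 50 after the start) are shown because 1 of these neighbours was called in pDC_TG and the other was not. The windows are chr13:100202073-100202372 for Naip2 and chr13:100247287-100247586 for Naip5. The Naip5 window lies outside the GENCODE span given here and within the RefSeq span, which ends at 100250930, so it belongs to a RefSeq start that is the end of neither span. Capitals mark runs of at least 15 bases found in both, which cover 99 bases of each with a longest run of 34.
Naip2: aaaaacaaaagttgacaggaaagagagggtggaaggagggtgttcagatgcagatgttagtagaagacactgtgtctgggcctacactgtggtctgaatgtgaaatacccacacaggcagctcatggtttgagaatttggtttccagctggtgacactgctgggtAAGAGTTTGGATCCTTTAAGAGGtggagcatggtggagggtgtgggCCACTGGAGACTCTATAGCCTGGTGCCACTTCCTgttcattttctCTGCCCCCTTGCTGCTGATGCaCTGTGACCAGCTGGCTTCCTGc
Naip5: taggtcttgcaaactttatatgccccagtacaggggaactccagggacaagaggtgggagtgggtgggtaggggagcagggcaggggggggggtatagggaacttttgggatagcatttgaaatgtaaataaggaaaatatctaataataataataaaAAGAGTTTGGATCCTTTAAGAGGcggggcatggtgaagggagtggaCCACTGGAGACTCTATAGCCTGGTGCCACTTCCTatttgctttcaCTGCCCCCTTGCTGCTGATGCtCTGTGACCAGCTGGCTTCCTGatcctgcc
Over 311 aligned columns 193 bases, or 62.1%, were identical, and the shared runs lie towards the start site. Neither the composite motif of ETS and IRF factors (GGAA, 2 free bases, GAAA) nor an interferon response element core (GAAA, 2 free bases, GAAA) occurred on either strand in any window of the 9 members with a RefSeq entry (Gsdmd has none there). The first occurs in 2.72% and the second in 3.44% of all 32851 promoter windows of this length. Their absence says only that these letters are not in the windows.

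Naip2 had 4.95, 12.7, 7.89 and 8.46 CPM in the 4 pDC_TG libraries, against a lowest value of 9.99, a median of 20.1 and a highest of 33.3 CPM in pDC_WT. Thus 3 of the 4 pDC_TG libraries lay below every pDC_WT library, and the fourth lay inside their range. In cDC1_WT it ran from 7.97 to 23.2 CPM with a median of 13, and in cDC2_WT from 23.6 to 42.1 CPM with a median of 28.2. The order of means was cDC2_WT, pDC_WT, cDC1_WT and pDC_TG. For Irf8 it was pDC_WT, cDC1_WT, pDC_TG and cDC2_WT, and a dependence of Naip2 on Irf8 across cell types was not tested. Naip2 was higher in cDC2_WT than in pDC_WT (log2 fold change 0.67, SE 0.24, adjusted p = 0.017), a call lost with total counts as the scaling (0.0709), with WT replicates 1 to 4 alone (0.143) and with 5 to 8 alone (0.0953). In cDC1_WT against pDC_WT it did not pass (-0.48, adjusted p = 0.0816), though it did without cDC1_WT replicate 6 (0.0299), without pDC_WT replicate 7 (0.0423) or 8 (0.0324), with WT replicates 1 to 4 alone (0.0268) and with total counts (0.00907). In cDC1_WT against cDC2_WT it was lower (-1.15, SE 0.24, adjusted p = 0.000197), with no overlap between their libraries. The lower level in pDC_TG than in cDC1_WT (-0.75, adjusted p = 0.036) was lost under 9 of 20 other settings, namely total counts (0.194), the fit of these groups alone (0.0559), WT replicates 1 to 4 (0.0658) or 5 to 8 alone (0.0862), and leaving out cDC1_WT replicate 6 (0.0748) or 7 (0.0601) and pDC_TG replicate 1 (0.157), 3 (0.0872) or 4 (0.0734).

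Naip5 differed little between the groups. It had 23.8, 19.6, 16 and 23.6 CPM in pDC_TG, a range of 12.5 to 24.6 CPM (median 15.9) in cDC1_WT, of 14.5 to 28.3 CPM (median 21.1) in cDC2_WT and of 14.9 to 31.4 CPM (median 24.4) in pDC_WT. The ranges of all 4 groups overlapped. In the order of means, pDC_WT, cDC2_WT, pDC_TG and cDC1_WT, no neighbours differed beyond the threshold with TMM scaling (adjusted p = 0.273, 0.919 and 0.288), and the 95% interval of pDC_TG over pDC_WT ran from -0.64 to 0.16 on the log2 scale. The ends of the order did, cDC1_WT being lower than pDC_WT (log2 fold change -0.48, SE 0.16, adjusted p = 0.00917), which was lost with WT replicates 1 to 4 alone (0.148). With total counts as the scaling Naip5 was also called higher in pDC_TG than in cDC1_WT (0.55, adjusted p = 0.0146, against 0.25 with TMM), lower in cDC2_WT than in pDC_WT (-0.36, adjusted p = 0.0481) and lower in cDC1_WT than in cDC2_WT (-0.38, adjusted p = 0.0492). That scaling moved the median of all genes to 0.30, -0.16 and -0.11 in these 3 comparisons.

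Naip2 and Naip5 share stretches of sequence with each other and with Naip1 and Naip6, so how the authors' counting placed shared reads could move counts between them. Of the 75-base windows of their spliced transcripts, 10.7% for Naip2 and 23.8% for Naip5 occur in another gene as well, and the other 89.3% and 76.2% are unique. Summed over Naip1, Naip2, Naip5 and Naip6, a sum chosen after the values were seen, the level was 34.2 ± 1.51 CPM in pDC_TG, 36.7 ± 6.25 CPM in cDC1_WT, 58.4 ± 8.11 CPM in cDC2_WT and 50.1 ± 9.79 CPM in pDC_WT. The pDC_TG sums ran from 32.1 to 35.5 CPM and the pDC_WT sums from 39.1 to 69.9 CPM, without overlap.

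Nlrc4 (chromosome 17, 74425438 to 74459142, minus strand) encodes the protein that NAIPs set into an oligomer. It was low in pDC, at 0, 2.0, 1.5 and 1.6 CPM in pDC_TG and from 0 to 3.45 CPM (median 1.43) in pDC_WT, so that these groups overlapped fully (log2 fold change -0.40, 95% interval -1.70 to 0.90, adjusted p = 0.792). In cDC1_WT it ran from 1.30 to 7.08 CPM with a median of 4.50, overlapping pDC_WT, and was called higher (1.42, SE 0.51, adjusted p = 0.0177), a call lost with WT replicates 1 to 4 alone (0.114) or 5 to 8 alone (0.187). In cDC2_WT it ran from 15.4 to 29.3 CPM with a median of 22.1, above every library of the other groups, and was called higher than in pDC_WT (3.73, SE 0.55, adjusted p = 8.99e-07). Nlrc4 was also lower in cDC1_WT than in cDC2_WT (-2.32, SE 0.51, adjusted p = 0.000416; 0.0576 with WT replicates 5 to 8 alone). It was lower in pDC_TG than in cDC1_WT as well (-1.81, adjusted p = 0.0236), a call lost without pDC_TG replicate 1 (0.0573), in the fit of these groups alone (0.0646) and with WT replicates 5 to 8 alone (0.116).

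NLRP3 responds to potassium efflux and many other signs of damage, and its gene (chromosome 11, 59541568 to 59566956, plus strand) is itself induced by NF-kappaB. Nlrp3 had 2.42, 3.18, 2.60 and 3.77 CPM in pDC_TG, against 1.42 to 7.96 CPM (median 3.56) in pDC_WT. The pDC_TG libraries lay inside the pDC_WT range, and the difference did not pass (log2 fold change -0.37, 95% interval -1.0 to 0.27, adjusted p = 0.539). Levels were 11 to 21.2 CPM (median 14.2) in cDC1_WT and 48.5 to 79.9 CPM (median 64.3) in cDC2_WT, and these 2 groups overlapped neither each other nor pDC_WT. Nlrp3 was 3.87-fold higher in cDC1_WT and 16.4-fold higher in cDC2_WT than in pDC_WT (log2 fold changes 1.95, SE 0.25, and 4.03, SE 0.27, adjusted p = 7e-08 and 5.31e-14). In cDC1_WT it was lower than in cDC2_WT (-2.08, SE 0.25, adjusted p = 2.62e-08). Its level in pDC_TG was 4.73% of that in cDC2_WT.

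Nlrp1b (chromosome 11, 71153102 to 71230733, minus strand) encodes a sensor that anthrax lethal factor activates by cutting it in some mouse strains. It was at the edge of detection in pDC, with 0, 0.227, 3.30 and 0.766 CPM in pDC_TG and 0 to 0.913 CPM (median 0.191) in pDC_WT, where 3 of 8 libraries had no read. A single library, pDC_TG replicate 3, lay above every pDC_WT library. The fitted log2 fold change of 2.12 (SE 0.81, adjusted p = 0.0797) was 0.46 without that library, while leaving out pDC_TG replicate 1 (adjusted p = 0.0236) or pDC_WT replicate 1 (0.0199), or testing with DESeq2 (0.0498), brought it past the threshold. In the conventional subsets Nlrp1b ran from 2.28 to 6.31 CPM (median 4.25) in cDC1_WT and from 4.98 to 10.5 CPM (median 6.74) in cDC2_WT, both above every pDC_WT library (log2 fold changes 4.11, SE 0.76, and 4.83, SE 0.78, adjusted p = 2.46e-05 and 3.58e-06). The conventional subsets overlapped and did not differ beyond the threshold (-0.72, 95% interval -2.04 to 0.60, adjusted p = 0.388), though they did in a fit of these groups alone (0.0247). In pDC_TG it was lower than in cDC2_WT (-2.71, adjusted p = 0.0149), a call lost without pDC_TG replicate 2 (0.0513) and with WT replicates 1 to 4 (0.0613) or 5 to 8 alone (0.0502). Against cDC1_WT the difference missed the threshold (-1.99, adjusted p = 0.056) and passed with DESeq2 (0.0211) or without pDC_TG replicate 3, where it was -3.64 (0.00374). Nlrp1b shares 0.445% of its 75-base windows with its neighbour Nlrp1a.

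Mefv (chromosome 16, 3707218 to 3718097, minus strand) encodes pyrin, which senses the inactivation of RhoA by bacterial toxins. Its reads numbered 0, 1, 1 and 0 in the pDC_TG libraries and 0 in each of the 8 pDC_WT libraries, so no fold is given between these groups. A count of 0 over pDC_WT allows up to 0.0146 CPM (3 reads over the group), which is 0.0215% of the cDC2_WT mean. Levels were 14.2 to 45.7 CPM (median 23.6) in cDC1_WT and 59.6 to 85.8 CPM (median 65.3) in cDC2_WT, with no overlap, and replicate 3 of cDC2_WT stood apart at the top of its group. Mefv was therefore at least 1870-fold higher in cDC1_WT and at least 4660-fold higher in cDC2_WT than that limit in pDC_WT. Over the 2 reads of pDC_TG the ratio was 1550 in cDC1_WT (95% counting interval 429 to 12800) and 3870 in cDC2_WT (1070 to 31900). In cDC1_WT against cDC2_WT Mefv was lower (log2 fold change -1.32, SE 0.21, adjusted p = 1.43e-05), and its spread was wide in cDC1_WT, where the highest library had 3.22 times the lowest.

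Pycard (chromosome 7, 127989708 to 127993867, minus strand) encodes ASC, the adaptor that joins sensor and caspase-1. It had 101, 126, 140 and 174 CPM in pDC_TG, against 134 to 208 CPM (median 154) in pDC_WT. Of the pDC_TG libraries 2 lay below every pDC_WT library and 2 inside their range, and the difference did not pass (log2 fold change -0.24, 95% interval -0.53 to 0.04, adjusted p = 0.288). Levels were 79.2 to 134 CPM (median 115) in cDC1_WT and 91.8 to 130 CPM (median 101) in cDC2_WT, where replicate 8 stood apart at the top, and all lay below the pDC_WT libraries. Pycard was lower than in pDC_WT in both (-0.56, SE 0.11, adjusted p = 9.14e-05 in cDC1_WT, and -0.61, SE 0.11, adjusted p = 3.07e-05 in cDC2_WT), the opposite direction to 6 of the sensors and receptors. The conventional subsets did not differ beyond the threshold (0.05, 95% interval -0.18 to 0.28, adjusted p = 0.749). Of the exonic bases of Pycard 12.8% overlap Gm45205 on the other strand, and since the protocol does not mark strand their reads cannot be told apart.

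In pDC_TG Pycard was higher than in cDC2_WT (log2 fold change 0.37, SE 0.14, adjusted p = 0.0275), which was lost without pDC_TG replicate 3 (0.062) or 4 (0.219) and with WT replicates 5 to 8 alone (0.162). Over cDC1_WT the difference missed the threshold (0.31, adjusted p = 0.0532) and passed without cDC1_WT replicate 7 (0.0412) or 8 (0.032), without pDC_TG replicate 1 (0.0101), with DESeq2 (0.044), with WT replicates 1 to 4 alone (0.0286) and with replicate number as a block (0.0173). With total counts it was 0.61 (adjusted p = 0.000198), where the median of all genes moved to 0.30.

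Gsdmd (chromosome 15, 75862327 to 75867408, plus strand) had 67.8, 77.5, 66.8 and 61.0 CPM in pDC_TG, against 36.5 to 63.6 CPM (median 42.8) in pDC_WT. The first 3 of these pDC_TG libraries lay above every pDC_WT library, and the other lay between the 2 highest pDC_WT libraries. Levels were 67.8 to 109 CPM (median 89.0) in cDC1_WT and 74.5 to 104 CPM (median 93.4) in cDC2_WT, above all pDC_WT libraries. Gsdmd was 1.83-fold higher in cDC1_WT and 1.96-fold higher in cDC2_WT than in pDC_WT (adjusted p = 2.48e-07 and 3.89e-08), with no difference past the threshold between those subsets (log2 fold change -0.10, 95% interval -0.34 to 0.14, adjusted p = 0.534). The pDC_TG mean, 68.3 ± 6.82 CPM, lay between the cDC1_WT mean of 86.2 ± 15.0 CPM and the pDC_WT mean of 47.2 ± 11 CPM. It was lower than in cDC2_WT (-0.43, SE 0.15, adjusted p = 0.0162), a call lost without pDC_TG replicate 4 (0.0618), with WT replicates 1 to 4 alone (0.0918) and with total counts, where the value was -0.24 (0.17). Against cDC1_WT Gsdmd missed the threshold (-0.34, adjusted p = 0.055) and passed without cDC1_WT replicate 1 (0.0272), 4 (0.0275) or 5 (0.0366) and with WT replicates 5 to 8 alone (0.0373). With total counts that difference was -0.039 (adjusted p = 0.837), where the median of all genes moved to 0.30, against 0.21 in the comparison with cDC2_WT.

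NOD1 and NOD2 bind fragments of bacterial peptidoglycan, NOD1 those with meso-diaminopimelic acid and NOD2 muramyl dipeptide. Nod1 (chromosome 6, 54923949 to 54972612, minus strand) had 12.6, 19.8, 10.2 and 18.2 CPM in pDC_TG, against 3.21 to 20.6 CPM (median 9.76) in pDC_WT. The pDC_TG libraries lay within the pDC_WT range, which its replicate 1 set at the top, and the difference did not pass (log2 fold change 0.64, SE 0.30, adjusted p = 0.168). Without pDC_WT replicate 1 it was 0.88 and passed (adjusted p = 0.0218). Levels were 36.2 to 65.1 CPM (median 43.2) in cDC1_WT, with replicate 4 apart at the top, and 150 to 227 CPM (median 200.1) in cDC2_WT, with no overlap among these groups and pDC_WT. Nod1 was 4.59-fold higher in cDC1_WT and 19.7-fold higher in cDC2_WT than in pDC_WT (adjusted p = 1.33e-08 and 4.66e-14), and in cDC1_WT it was lower than in cDC2_WT (-2.10, SE 0.25, adjusted p = 3.66e-08).

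Nod2 (chromosome 8, 88647315 to 88688474, plus strand) had 2.03, 1.29, 1.66 and 0.766 CPM in pDC_TG, against 1.18 to 5.40 CPM (median 3.00) in pDC_WT. A single pDC_TG library lay below all pDC_WT libraries, and 6 of the 8 pDC_WT libraries lay above all of pDC_TG. The difference missed the threshold (log2 fold change -1.15, SE 0.42, adjusted p = 0.0639) and passed with DESeq2 (0.0323) or without pDC_WT replicate 1 (0.0316) or 8 (0.0378). Levels in cDC1_WT (5.23 to 17.0 CPM, median 11.1) and cDC2_WT (4.44 to 20.4 CPM, median 14.7) were higher than in pDC_WT (1.86, SE 0.33, and 2.14, SE 0.33, adjusted p = 1.3e-05 and 1.8e-06). Unlike Nod1, Nod2 did not differ past the threshold between cDC1_WT and cDC2_WT (-0.28, 95% interval -0.92 to 0.36, adjusted p = 0.499).

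To set genes beside each other, levels were also divided by the length of the principal spliced transcript. Per kilobase, Pycard led in pDC_WT with 42.1 CPM per kb, followed by Gsdmd with 26.3, Naip5 with 4.7, Naip2 with 4.16 and Nod1 with 2.28 CPM per kb. In cDC2_WT Gsdmd led with 51.5 CPM per kb, followed by Nod1 with 44.7, Pycard with 27.6, Mefv with 21.9 and Nlrp3 with 15.7 CPM per kb. The annotated Pycard transcript, 3800 bases long, exceeds the RefSeq gene span of 2495 bases, so its level per kilobase is uncertain.

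The executors act downstream of the sensors. Of 12 genes for inflammasome execution 10 were tested, and in pDC_TG against pDC_WT 1 was higher, Il18, with 3.22 ± 1.36 CPM in pDC_TG and 1.76 ± 0.854 CPM in pDC_WT (log2 fold change 0.88, SE 0.28, adjusted p = 0.0291). That call was lost without pDC_TG replicate 1 (0.211) or 3 (0.0921), without pDC_WT replicate 6 (0.0529), 7 (0.052) or 8 (0.0518), in a fit of the pDC groups alone (0.308) and against pDC_WT replicates 1 to 4 alone (0.449). Casp1, which encodes the caspase that cleaves gasdermin D, averaged 56.5 ± 4.88 CPM in pDC_TG and 45.5 ± 8.16 CPM in pDC_WT (0.31, adjusted p = 0.0815). Casp8 (0.25, adjusted p = 0.134) and Il1a, at 0 in pDC_TG and 0.0491 CPM in pDC_WT (adjusted p = 0.283), did not pass either. The median log2 fold change of the tested genes was 0.29, against 0 for all genes, of which 14.8% were called.

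In cDC1_WT against pDC_WT 4 of these 10 executors were higher and 2 lower, near the share of 60.9% of all genes called. In cDC2_WT against pDC_WT 7 were higher and 2 lower, where 57.1% of all genes were called. Il1b, the cytokine that inflammasomes mature, averaged 1196 ± 410 CPM in cDC1_WT, 3727 ± 1054 CPM in cDC2_WT and 10.9 ± 10.5 CPM in pDC_WT (log2 fold changes 6.76 and 8.40 over pDC_WT, adjusted p = 4.14e-12 and 1.96e-13). Il18 averaged 27.4 ± 6.47 CPM in cDC1_WT, 23.0 ± 3.78 CPM in cDC2_WT and 1.76 CPM in pDC_WT (3.97 and 3.72, adjusted p = 1.31e-14 and 5.44e-14). Casp1 differed in both directions: it was lower in cDC1_WT (25.7 ± 1.78 CPM; -0.82, adjusted p = 2.51e-08) and higher in cDC2_WT (76.3 ± 9.53 CPM; 0.75, adjusted p = 1.51e-07) than in pDC_WT. Ifi203, of the interferon-inducible PYHIN family, was lower in cDC1_WT than in pDC_WT (-3.03, adjusted p = 1.59e-15). In cDC1_WT against cDC2_WT 5 executors were lower and the other 5 did not pass, where 46.2% of all genes were called. Casp1 (-1.57, adjusted p = 5.44e-14), Ifi203 (-2.13, adjusted p = 7.72e-12) and Casp8 (-0.41, adjusted p = 0.000317) were among the lower ones.

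Further genes help or restrain inflammasomes. Of 20 such cofactors and brakes 19 were tested, and 2 were higher and 4 lower in pDC_TG than in pDC_WT, with a median log2 fold change of -0.11. The share called over all genes was 14.8%. Prkcd, which encodes the kinase PKC delta that can phosphorylate NLRC4, had 304, 212, 209 and 283 CPM in pDC_TG, against 400.0 to 597 CPM (median 492) in pDC_WT, without overlap (log2 fold change -0.95, SE 0.13, adjusted p = 1.85e-06). Il1r2, the decoy receptor for interleukin-1, had 9.29, 5.22, 11.7 and 16.8 CPM in pDC_TG, against 0 to 2.33 CPM (median 0.289) in pDC_WT (4.18, SE 0.65, adjusted p = 2.49e-05). Il18bp, which encodes the binding protein that neutralises interleukin-18, averaged 3.04 ± 0.547 CPM in pDC_TG and 0.327 ± 0.312 CPM in pDC_WT (3.20, adjusted p = 0.00207). P2rx7, the ATP-gated channel that can trigger NLRP3, averaged 20.0 ± 4.16 CPM in pDC_TG and 32.9 ± 7.78 CPM in pDC_WT (-0.72, adjusted p = 0.00315). The other 2 called lower were Tnfaip3 (A20, a brake on NF-kappaB) and Trim30a, which were chosen for naming after their values were seen (-0.79, adjusted p = 0.00398, and -0.37, adjusted p = 0.00564). Il1r2 is also expressed by neutrophils, and all 6 calls held without pDC_TG replicate 4. Those of P2rx7 (0.0924 against pDC_WT replicates 5 to 8), Tnfaip3 and Trim30a (0.0686 and 0.153 against replicates 1 to 4) were lost in a smaller fit.

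Between cell types, 5 cofactors and brakes were higher and 8 lower in cDC1_WT than in pDC_WT, 4 higher and 8 lower in cDC2_WT than in pDC_WT, and 5 higher and 8 lower in cDC1_WT than in cDC2_WT. The shares called over all genes were 60.9%, 57.1% and 46.2% in the same order. Panx1, a channel that releases ATP, averaged 20.2 CPM in cDC1_WT, 84.2 CPM in cDC2_WT and 94.6 CPM in pDC_WT (cDC1_WT over pDC_WT -2.23, adjusted p = 1.41e-14, and over cDC2_WT -2.06, adjusted p = 1.98e-13). Prkcd (-1.38, adjusted p = 4.35e-13) and Nek7, the kinase that NLRP3 needs (-0.96, adjusted p = 1.13e-11), were also lower in cDC1_WT than in pDC_WT. Trim30a was lower in cDC2_WT than in pDC_WT (-1.35, adjusted p = 8.82e-16) and higher in cDC1_WT than in cDC2_WT (0.81, adjusted p = 2.07e-10). Il1rn, the interleukin-1 receptor antagonist, averaged 0.714 CPM in cDC1_WT, 77.2 ± 17.5 CPM in cDC2_WT and 0.0877 CPM in pDC_WT, and Il1r2 33.3 ± 9.36 CPM in cDC2_WT against 0.583 CPM in pDC_WT (9.77 and 5.81 in cDC2_WT over pDC_WT, adjusted p = 8.57e-12 and 6.18e-09). Il1rn was lower in cDC1_WT than in cDC2_WT (-6.77, adjusted p = 3.9e-10).

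Among 15 other genes of the NLR family 8 were tested, and in pDC_TG 1 was higher and 1 lower than in pDC_WT, where 14.8% of all genes were called. Ciita, the master activator of MHC class II genes and an NLR by structure, averaged 121 ± 18.6 CPM in pDC_TG and 76.6 ± 14.2 CPM in pDC_WT (log2 fold change 0.66, SE 0.14, adjusted p = 0.00122). Nlrp1a averaged 1.96 ± 0.621 CPM in pDC_TG and 4.04 ± 1.12 CPM in pDC_WT (-1.04, SE 0.32, adjusted p = 0.023), a call lost without pDC_TG replicate 2 (0.104) or 4 (0.0752), in a fit of the pDC groups alone (0.106) and against pDC_WT replicates 5 to 8 alone (0.133). Nlrp10 (0.86, adjusted p = 0.335) and Nlrc5 (-0.32, adjusted p = 0.441) did not pass. Against pDC_WT 4 of the family were higher and 3 lower in cDC1_WT, where 60.9% of all genes were called. In cDC2_WT 5 were higher and 2 lower, where 57.1% of all genes were called. Ciita was higher in both cDC1_WT and cDC2_WT, at 383 and 416 CPM (2.32 and 2.44, adjusted p = 1.96e-16 and 7.29e-17), and so was Nlrp1a, at 14.4 and 25.8 CPM (1.84 and 2.67, adjusted p = 1.67e-07 and 1.69e-10). The pseudogene Nlrp1c-ps had no read in either pDC group and averaged 6.83 CPM in cDC1_WT and 4.90 CPM in cDC2_WT, at least 469-fold and 337-fold above the limit of 3 reads over pDC_WT. In cDC1_WT against cDC2_WT 1 was higher and 3 lower, where 46.2% of all genes were called. Nlrp10 (0.247 against 23.3 CPM, log2 fold change -6.49, adjusted p = 8.42e-11) and the mitochondrial Nlrx1 (-1.76, adjusted p = 3.16e-08) were lower and Nlrc5, the activator of MHC class I genes, was higher (0.95, adjusted p = 0.000133).

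All 18 genes of NOD signalling were tested. Where 14.8% of all genes were called, 1 of these 18 was higher in pDC_TG than in pDC_WT. This was Ikbkb, a kinase of the NF-kappaB pathway, with 76.6 ± 10.2 CPM in pDC_TG and 60.3 ± 4.83 CPM in pDC_WT (log2 fold change 0.35, SE 0.11, adjusted p = 0.0369). The call was lost without pDC_TG replicate 1 (0.132) or 2 (0.162) and without pDC_WT replicate 2 (0.0576), 5 (0.0608), 6 (0.0575) or 8 (0.0583), and against pDC_WT replicates 1 to 4 (0.215) or 5 to 8 alone (0.0582). Card9 (1.47, adjusted p = 0.0638), Ikbkg (-0.36, adjusted p = 0.0881) and Xiap (0.39, adjusted p = 0.116) did not pass. Against pDC_WT 6 were higher and 4 lower in cDC1_WT, and 11 higher in cDC2_WT, where the other 7 did not pass. Of all genes 60.9% were called in cDC1_WT (30.6% higher, 30.3% lower) and 57.1% in cDC2_WT (28.8% higher, 28.3% lower). The total called was near these shares in both. In cDC2_WT, however, all 11 calls went upwards. The median log2 fold change of the list there was 0.57, against -0.01 for all genes. Ripk2, the kinase on which both receptors depend, averaged 8.82 ± 3.14 CPM in cDC1_WT, 35.7 ± 5.59 CPM in cDC2_WT and 12.4 ± 2.08 CPM in pDC_WT, higher in cDC2_WT than in pDC_WT (1.52, adjusted p = 1.25e-08). Birc3, a ubiquitin ligase of the receptor complex, was higher in both (0.74 and 1.08, adjusted p = 2.69e-10 and 5.46e-14), and Nfkbia was higher in cDC2_WT than in pDC_WT (1.33, adjusted p = 9.61e-11). In cDC1_WT against cDC2_WT 1 was higher and 9 lower, where 46.2% of all genes were called. Among the lower ones were Ripk2 (-2.02, adjusted p = 8.88e-11) and the endosomal transporters Slc15a4 (-2.32, adjusted p = 3.27e-13) and Slc15a3 (-3.34, adjusted p = 1.72e-10), which carry muramyl dipeptide to NOD2. Both transporters were also lower in cDC1_WT than in pDC_WT (-2.67 and -3.68, adjusted p = 6.58e-15 and 1.28e-11).

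Across the 28 libraries, the genes whose log2 CPM followed each member most closely, among 11192 genes, were compared by Pearson's r as a description only, since libraries of a group share their cell type. For Nlrp3 these were Tlr1 (r = 0.977), Elmo1 (0.96) and Pla2g7 (0.959), and for Mefv Jag1 (0.994), Insm1 (0.991) and Aldh1a2 (0.991). Nod1 was followed by 1110032F04Rik (0.96), Adap1 (0.958) and Cdc42ep3 (0.954), and Nlrc4 by C1qa (0.889), Slc7a7 (0.874) and Cdc42ep2 (0.87). Pycard, with the opposite order of groups, was followed by Dpm3 (0.913), Emc8 (0.877) and Dad1 (0.875). Gsdmd was closest to Tm6sf1 (0.895), Nlrp1b to Acp2 (0.919) and Nod2 to Zfp385a (0.911), while for Naip2 and Naip5 the closest genes, Chst10 and Btrc, reached 0.783 and 0.729. Among the members, Nlrp3 and Nod1 were closest to each other (r = 0.946), Pycard and Mefv the most opposed (-0.758), and the neighbours Naip2 and Naip5 unrelated (0.032).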

How the data were processed

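RNA of sorted splenic DCs was amplified with SMART-Seq v4 and sequenced as single 75 bp reads, per the labels' protocols. The submitters' processing notes name TopHat2 2.1.0, SAMtools 0.1.18, Trimmomatic 0.35, FastQC 0.11.4 and build mm10. The tool that counted reads and the annotation it used are not given in the sources used here. Values were deposited by the authors as raw counts by symbol, and summary lines that name no gene (no-feature reads, 8.23% to 18.7%, and ambiguous reads, 1.04% to 1.57% of each library) were left out. The members and all gene lists were chosen with earlier results of these data known.

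Counts were fitted in R 4.3.3 with edgeR 4.0.16 (TMM, filterByExpr by group with a minimum count of 10, robust quasi-likelihood fit of all 28 libraries, two-sided tests of 6 comparisons). Of 24421 genes 13159 passed, among them all 10 members, and SE and 95% intervals come from that fit. DESeq2 1.42.0 served as an alternative beside other scalings, no filter, fits of 2 groups alone, WT replicates 1 to 4 or 5 to 8, a replicate block and leaving out each library. The scripts were tested on simulated counts of pDC_TG versus pDC_WT. There all groups shared the same mean per gene, and 200 of 12871 genes were raised in pDC_TG. Of 100 genes changed 2-fold 55 were called, and of 100 changed 4-fold 72, with 4 false calls. In the data 14.8% of genes were called, in both directions, so these rates do not give the power of the real comparison. Genes that did not pass in pDC_TG versus pDC_WT may still differ. Floors of 3 counts and counting intervals cover counting error only, since copies made by PCR are not separate molecules. Gene positions come from GENCODE vM21 (GRCm38, the same assembly as mm10) and promoters from RefSeq.

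Of 4 other lists (other NLR family, execution, cofactors and brakes, NOD signalling) the text names up to 4 genes with the smallest adjusted p in pDC_TG versus pDC_WT and up to 3 in each comparison between WT groups, and otherwise the 3 genes most like a member. Same-numbered WT libraries carry the same mouse number in the labels and deviated from their group means together (r over 8287 genes 0.14 to 0.268 for cDC1_WT with cDC2_WT, 0.091 to 0.242 for cDC1_WT with pDC_WT and 0.141 to 0.299 for cDC2_WT with pDC_WT), so they were taken as paired in the replicate block. Same-numbered libraries of pDC_TG and pDC_WT did not pair (-0.022 to 0.117). The pDC_WT libraries closest to pDC_TG replicates 1, 2, 3 and 4 were replicates 3, 6, 7 and 8. In cDC1_WT and cDC2_WT too, pDC_TG replicates 3 and 4 were closest to replicates 7 and 8. Whether pDC_TG libraries share structure with WT libraries of other numbers was not tested. No pair of libraries in a group agreed within sampling noise (lowest chi-square per degree of freedom 33.6).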

Additional observations from a re-analysis of the deposited data

Results flagged for a closer look

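In 3 of 43 groups of libraries examined 1 library stood far from the others, where chance gives about 1 in 20 groups. Pycard had 130 CPM in cDC2_WT replicate 8, against 91.7 to 108 CPM in the other 7 libraries of that group. Mefv had 85.8 CPM in cDC2_WT replicate 3, against 59.6 to 71.1 CPM in the others. Nod1 had 65.1 CPM in cDC1_WT replicate 4, against 36.2 to 47.0 CPM in the others. The summed neutrophil markers were also highest of that group in cDC1_WT replicate 4, at 22.6 CPM, and their part in its Nod1 level was not tested. Leaving out any of these 3 libraries changed no call of the same gene between the WT groups.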

How the results depend on the processing

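The count of members called in pDC_TG against pDC_WT was 2 and depended on the settings. It was 4 with the DESeq2 Wald test, 1 with WT replicates 1 to 4 only and 1 with WT replicates 5 to 8 only, and leaving out 1 library gave 1 (without pDC_TG replicate 2) to 5 (without pDC_WT replicate 1). The causes were not tested, though fewer libraries entered the smaller fits. The counts in the other 5 comparisons stayed within 1.5 times their value, and Irf8 stayed lower in pDC_TG, under every alternative run. With the replicate block no member's call changed between WT groups, and Pycard in pDC_TG against cDC1_WT passed (log2 fold change 0.38). For pDC_TG that block used its own replicate numbers, which did not pair with the same pDC_WT numbers, also for this Pycard value. In it Ikbkb in pDC_TG against pDC_WT lost its call (0.30, adjusted p = 0.111). Among the other lists in pDC_TG against pDC_WT, the count of called execution genes (1) was 0 to 2 over the settings, that of NOD signalling (1) 0 to 2 and that of the other NLR family (2) 1 to 2. That of cofactors and brakes in pDC_TG against cDC2_WT was 7 with WT replicates 5 to 8, against 11. Naip5 in pDC_TG against cDC2_WT, not called, turned from -0.03 to 0.17 with total counts, to 0.06 with the block, to 0.022 with WT replicates 5 to 8, and ran from -0.103 to 0.08 when 1 library was left out. Other values near 0 that turned sign without a call were Pycard in cDC1_WT against cDC2_WT (-0.048 with total counts, -0.013 with WT replicates 1 to 4), Naip5 in cDC2_WT against pDC_WT (0.019 with WT replicates 1 to 4) and Nlrc4 in pDC_TG against pDC_WT (0.007 without pDC_TG replicate 1, -0.698 to 0.007 over all libraries left out). Scaling by total counts moved the median of all genes to -0.28 in cDC1_WT and -0.16 in cDC2_WT against pDC_WT, to -0.11 in cDC1_WT against cDC2_WT, and to 0.30 and 0.21 in pDC_TG against cDC1_WT and cDC2_WT. The share of higher calls among all calls was then 36.6% in cDC1_WT against pDC_WT (50.3% with TMM) and 66.5% and 63.2% in pDC_TG against cDC1_WT and cDC2_WT (50.5% in each with TMM). Of all genes, 3921 were called in cDC1_WT against cDC2_WT with WT replicates 1 to 4, against 6085 with all 8. In pDC the values of Nlrp1b, Nlrc4, Nod2 and Mefv rest on low counts. Nlrp1b, Nlrc4 and Mefv had no read in some libraries of both pDC groups. Nod2 had 24 to 53 reads per library in pDC_TG and 22 to 138 in pDC_WT. The parts of depth and of amplification in these counts were not tested.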

Other observations

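Pycard lies 136 kb from Itgax, whose regulatory sequence drives the Cre transgene, and some genes around Itgax were looked at after their values were seen. Itgax itself averaged 408 CPM in pDC_TG and 157 CPM in pDC_WT (log2 fold change 1.38, adjusted p = 3.73e-07), and its neighbours Itgam (31.9 against 0.401 CPM; 6.23, adjusted p = 3.29e-08), Itgad (50.5 against 12.6 CPM; 2.01, adjusted p = 0.00112) and Cox6a2 (1004 against 376 CPM; 1.42, adjusted p = 0.000113) were higher in pDC_TG too. Armc5 on the far side of Itgax did not pass (0.06, adjusted p = 0.906), and neither did Pycard.

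The spread between libraries, in which mouse and technical variation cannot be told apart, differed by member within pDC_WT. The highest pDC_WT library had 5.62 times the lowest for Nlrp3, 6.43 times for Nod1 and 4.57 times for Nod2, against 1.55 times for Pycard and 1.74 times for Gsdmd. In cDC2_WT the same ratio was 1.65 for Nlrp3 and 1.51 for Nod1, where counts are higher.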
